A study of Mus musculus with 2 samples.

Results

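The cells described are T cells with RNA for both Fcer1g and Tyrobp, the genes of the ITAM-bearing adaptor proteins FcRγ and DAP12. They were chosen from single-cell RNA counts of mouse mammary fat pad T cells by 4 conditions. A cell needed at least 500 genes, at least 1000 UMIs (molecular barcodes, 1 for each RNA molecule caught) and under 10% mitochondrial UMIs. It needed at least 1 UMI of Cd3d, Cd3e or Cd3g, at least 1 UMI each of Fcer1g and Tyrobp, and 0 UMIs of Lyz2, Csf1r, Cd74 and H2-Aa, which are abundant in myeloid and antigen-presenting cells. Of 5488 T cells, 287 met the rule, of which 269 came from the parous library and 18 from the virgin library. The working description of these cells as innate-like, Gzma-positive and integrin-positive held for most parous members, of which 63.9% had Gzma and 72.9% had Itgae or Itga1. It did not hold for the virgin members, of which 11.1% had Gzma, so the name Fcer1g+ Tyrobp+ T cells is used for both.

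The study compared C57BL/6 mice of 2 kinds, multiparous (called parous here) and virgin. From each group, live CD45+ TCRB+ CD8a+ cells of the fourth mammary fat pad were sorted without culture or treatment and made into a 10x Genomics 5′ gene expression library. Each group was 1 library from a pool of at least 5 mice, the animals' ages were not given, and no cell could be traced to a mouse. With 1 library a group there are no replicates and nothing was tested. Intervals in the text are 95% intervals, by the exact Poisson method for counts and by Clopper-Pearson for shares, and they include no error other than that of counting.

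Fcer1g and Tyrobp proteins sit in the membrane of natural killer (NK) and myeloid cells, where they pair with activating receptors that have no signalling tail of their own and pass their signal to the kinases Syk and Zap70. Conventional CD8 T cells signal through the CD3 chains and the CD8αβ coreceptor and carry little of either adaptor. T cells that do carry them, often with CD8αα in place of CD8αβ, are known from the gut epithelium and from other barrier tissues, where they hold ready-made granzymes and NK receptors.

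The genes that set these cells apart lie on several chromosomes of GRCm38, the assembly that mm10 names. Fcer1g lies at chr1:171229572-171234365 on the minus strand and Tyrobp at chr7:30413760-30417585 on the plus strand. Gzma, the gene of the granule protease granzyme A, lies at chr13:113093825-113100981 on the minus strand. Itga1, the collagen-binding integrin chain CD49a, lies on the same chromosome at chr13:114953096-115101964, also on the minus strand. Itgae, the E-cadherin-binding integrin chain CD103, lies at chr11:73090583-73147446 on the plus strand. The coreceptor genes Cd8b1 (chr6:71322788-71337494) and Cd8a (chr6:71373427-71379173) are neighbours on the plus strand. The NK receptor genes Ncr1 (chr7:4337724-4345164, plus strand) and Klrb1c (chr6:128778485-128789215, minus strand) and the Helios gene Ikzf2 (chr1:69531214-69687245, minus strand) complete the group.

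The promoters of 3 of these genes are shown because they are an adaptor of the rule, the granule protease most abundant in the parous members and the NK receptor with the largest ratio to other T cells. Each sequence is the stretch before the annotated start, from the RefSeq table of GRCm38.p6 promoters, written 5′ to 3′ on the gene's own strand. Capitals mark matches on either strand to 3 motifs of transcription factor families known in cytotoxic lymphocytes: TGTGGT (RUNX), GGAAGT (ETS) and GTGTGA (T-box). The Fcer1g stretch (chr1:171234366-171234599, minus strand, 234 bases) held 0 matches, the Gzma stretch (chr13:113100982-113101231, minus strand, 250 bases) 1 and the Ncr1 stretch (chr7:4337465-4337714, plus strand, 250 bases) 3. No 2 of these matches overlap.
Fcer1g: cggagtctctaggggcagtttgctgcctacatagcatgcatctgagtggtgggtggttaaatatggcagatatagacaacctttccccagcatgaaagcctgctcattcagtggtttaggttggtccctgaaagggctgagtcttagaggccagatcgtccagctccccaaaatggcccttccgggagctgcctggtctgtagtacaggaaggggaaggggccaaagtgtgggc
Gzma: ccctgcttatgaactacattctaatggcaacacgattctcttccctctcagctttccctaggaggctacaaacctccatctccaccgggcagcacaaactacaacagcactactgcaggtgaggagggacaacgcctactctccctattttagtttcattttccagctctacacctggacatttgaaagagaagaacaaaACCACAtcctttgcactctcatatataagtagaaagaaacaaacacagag
Ncr1: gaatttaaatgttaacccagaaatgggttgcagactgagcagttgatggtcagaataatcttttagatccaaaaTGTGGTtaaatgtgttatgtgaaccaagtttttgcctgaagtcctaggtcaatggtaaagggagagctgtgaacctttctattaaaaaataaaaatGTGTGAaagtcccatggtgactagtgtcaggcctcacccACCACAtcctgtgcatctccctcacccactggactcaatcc
The Gzma match and the second RUNX match of Ncr1 are on the opposite strand and read ACCACA. Over 27025 mouse promoters of 250 bases, with 1 chromosome left out, 14.2% held the RUNX letters, 19.98% the ETS letters and 12.2% the T-box letters. The Fcer1g stretch was shorter, at 234 bases. A match is a description of the letters and no evidence that a factor binds there.

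The cells made up 8.99% of parous T cells (269 of 2991, interval 7.99 to 10.1%) and 0.721% of virgin T cells (18 of 2497, interval 0.428 to 1.14%). The virgin library was deeper, with 20166425 UMIs over 2526 barcodes against 14676415 UMIs over 4927 barcodes, and a deeper cell has more chances to show 1 UMI of each adaptor. With every T cell thinned to 1500 UMIs before the rule was applied, the shares were 7.34% (209 of 2847, interval 6.41 to 8.36%) and 0.242% (6 of 2480, interval 0.0888 to 0.526%). Thinning left out 144 parous and 17 virgin T cells, of which 10 parous cells were members. The members were as deep as the cells around them in the parous library, with a median of 4325 UMIs (1111 to 14634) against 4105.5 in the other parous T cells. In the virgin library the medians were 8162.5 (3950 to 24858) and 6998 UMIs. The libraries shared 18 cell barcodes, of which 0 were members. The cell filter weighed on the parous library, where it left out 1908 barcodes with a median of 600 UMIs, of which 49.3% had a Gzma UMI, against 15 barcodes in the virgin library.

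The adaptor levels chose the cells and are given as a description. The parous members held a lowest of 1, a median of 13 and a highest of 43 Fcer1g UMIs, and 1, 7 and 32 Tyrobp UMIs. The virgin members held 2, 5 and 29 Fcer1g UMIs, and 1, 3 and 21 Tyrobp UMIs. The adaptor RNAs were thus well above the 1 UMI that the rule asked for in most members, and 232 of the 269 parous members had at least 2 UMIs of each. The other 37 parous members, with 1 UMI of at least 1 adaptor, had Gzma in 29.7%, Itgae in 24.3% and Itga1 in 27.0%. Only 7 parous members had 1 UMI of each, and 85.7% of those had Cd8b1.

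Just outside the rule stood 253 parous T cells with Fcer1g and no Tyrobp UMI (8.46% of T cells), 51 with Tyrobp and no Fcer1g UMI (1.71%) and 18 with both adaptors and a myeloid UMI. Among the first, 109 cells had at least 5 Fcer1g UMIs. These had Itgae in 56.0%, Itga1 in 49.5%, Ikzf2 in 78.9%, Xcl1 in 95.4% and Cd8b1 in 27.5%, with Gzma in 35.8% and the Ly49 receptor gene Klra7 in 46.8%. The 71 cells with 1 Fcer1g UMI and no Tyrobp had Itgae in 9.86%. In the virgin library 59 T cells had Fcer1g without Tyrobp, of which 79.7% had Ikzf2 and 0 had Itgae. A further 64 had Tyrobp without Fcer1g, of which 96.9% had Cd8b1.

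Free RNA in droplets gives UMIs in cells that do not make a gene, so naive-like T cells, with at least 1 UMI of each of 3 genes of naive cells, Ccr7 and Lef1 among them, served as background (386 parous cells with a median of 5259.5 UMIs). At 1500 UMIs a cell, 2.86% of them had Gzma, 3.38% Gzmb, 4.42% Itgae, 1.04% Itga1, 2.86% Klra7, 6.49% Ikzf2 and 7.01% Xcl1. For Fcer1g the background was 3.12% and for Tyrobp 0.52%. At the full depth 5.18% of these cells had Gzma, 6.99% Fcer1g and 1.55% Tyrobp. The shares in the members at 1500 UMIs lay far above each of these, at 62.5% for Gzma (interval 56.3 to 68.5%), 73.0% for Gzmb, 30.9% for Itgae, 29.0% for Itga1, 53.7% for Klra7, 43.2% for Ikzf2 and 82.2% for Xcl1. Naive-like cells may make some of these RNAs, Itgae among them, so their shares need not be free RNA alone. This was not tested.

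**Figure D1:**
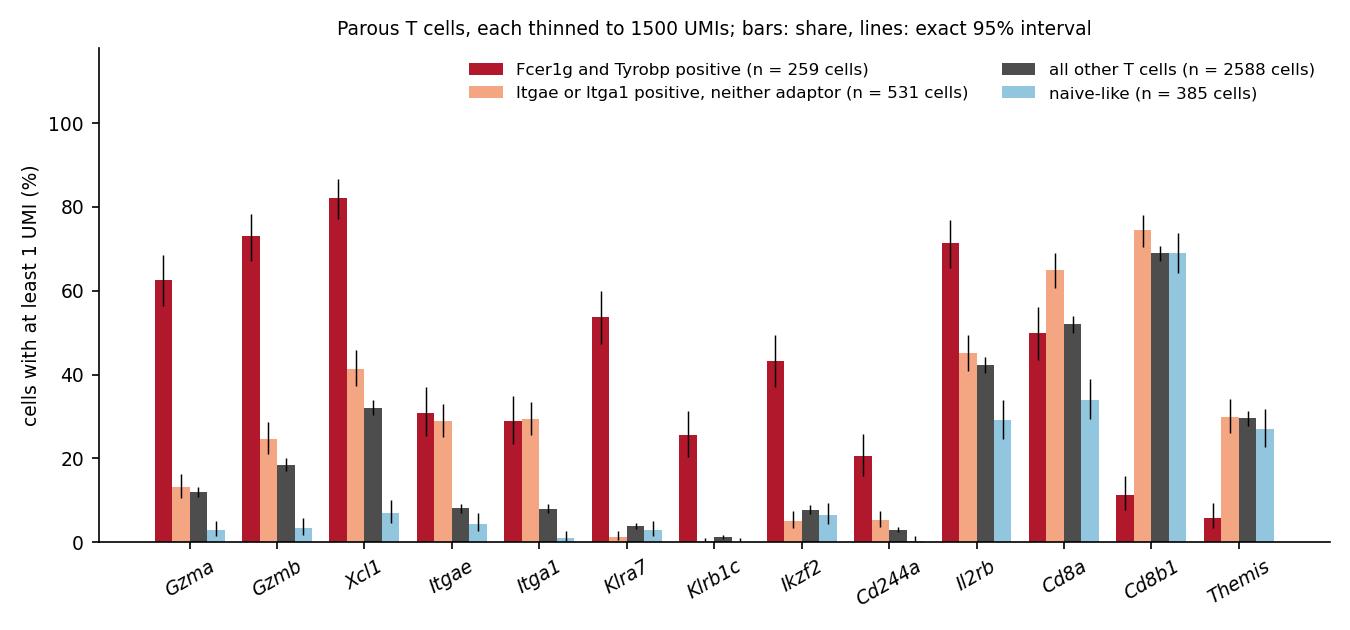
Percent of cells with at least 1 UMI of each of 13 genes, with every cell thinned to 1500 UMIs, in 4 groups of parous T cells: Fcer1g+ Tyrobp+ cells, integrin-positive cells with neither adaptor, naive-like cells and all other T cells. Lines are exact 95% intervals. The members lead for Gzma (62.5%), Gzmb (73.0%), Xcl1 (82.2%) and Klra7 (53.7%) and are the lowest of the 4 groups for Cd8b1 (11.2%).

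Against all other parous T cells, the members had more RNA of granzymes A and B, NK receptors and the signalling genes Lyn, Lat2 and Plcg2, and less of the CD8β chain, of Themis and of lymph node homing genes. The values are UMIs summed over the cells of a group, per 1e6 UMIs of that group (CPM), and a log2 ratio with 0.5 added to each count. The cells were chosen from these same counts, so the ratios describe them and test nothing. Among 10320 genes with at least 30 UMIs over the 2 groups, 677 (6.56%) were at least 2-fold higher in the members and 686 (6.65%) lower by as much. The median log2 ratio over all of them was 0.10. Under median-of-ratios scaling these numbers were 501 and 794, since that scaling moves every log2 ratio of this comparison by −0.14. The counts over lists below are of measured genes that the rule did not use, and are read beside those 6.56% and 6.65%.

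Of the adaptors, kinases and linkers of ITAM signalling, 4 of 19 were at least 2-fold higher and 2 lower, with a median log2 ratio of 0.24. Lyn, a Src-family kinase of myeloid and B cells, stood at 187 CPM against 15.4 CPM and was found in 40.5% of members and 4.56% of the other cells, a log2 ratio of 3.61 (3.32 to 3.89). Lat2, a linker of B, mast and NK cells, stood at 137 against 8.11 CPM, a log2 ratio of 4.07 (3.71 to 4.45). Plcg2, the phospholipase Cγ of B and NK cells, had a log2 ratio of 3.88 (3.19 to 4.62) from 45 UMIs in the members. Lat, the linker of T cell receptor signalling, went the other way at 288 against 628 CPM, a log2 ratio of −1.12, and the SLAM adaptor Sh2d1a was lower by a similar ratio of −1.05. The kinase Zap70 stood at 241 against 156 CPM (0.63, interval 0.45 to 0.80) and was found in 64.7% of members. Its relative Syk had 3 UMIs in all 269 members and 4 UMIs in all other parous T cells, too few to compare. Lck (0.02) and the adaptor Hcst (0.08), which serves NKG2D, lay within 0.1 of no difference in log2, a size that the choice of scaling alone covers.

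**Figure D2:**
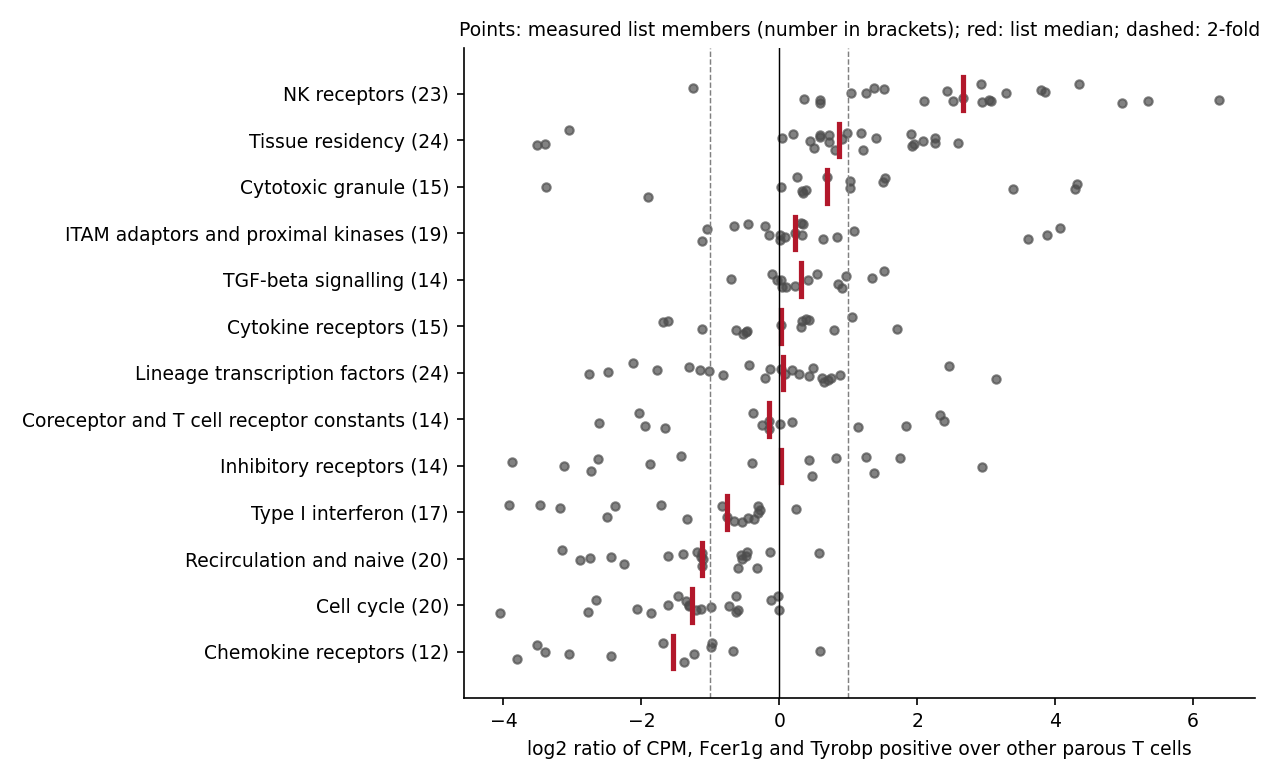
Log2 ratio of CPM in Fcer1g+ Tyrobp+ T cells over other parous T cells for each measured member of 13 gene lists, 1 dot a gene, with genes of the rule left out. Red bars are list medians, dashed lines mark a 2-fold difference, and genes at 0 UMIs in the members are drawn from the 0.5 added to each count. NK receptors lie mostly above the upper line (median 2.66), and recirculation genes lie mostly below 0 (median −1.12).

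NK receptors were the list with the most members past 2-fold: 19 of 23 were higher and 1 lower, with a median log2 ratio of 2.66. Klrb1c, the gene of NK1.1, stood at 210 against 10.3 CPM and was found in 51.3% of members and 3.12% of the other cells, a log2 ratio of 4.34 (4.03 to 4.67). Ncr1, the gene of NKp46, was found in 16.7% of members and in 6 of the 2722 other cells (64.9 against 0.744 CPM), a log2 ratio of 6.38 (5.45 to 7.62). It was the largest ratio of all named genes that the rule did not use. Among the Ly49 receptors, which bind MHC class I, Klra7 stood at 742 against 53.5 CPM and was found in 69.5% and 6.72% of cells. A parous member held a lowest of 0, a median of 3 and a highest of 22 Klra7 UMIs. Klra1 (271 against 27.7 CPM, 3.29), Klra9 (3.86) and Klra5 (4.97) were higher as well. Klra genes are near-identical copies, as are the Klrb1 genes, so reads may be divided between them with error and the value of any 1 member is uncertain.

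Klrd1, Klrc1, Klrk1 and Cd160, which conventional CD8 T cells also use, had ratios below the list median of 2.66. Klrd1 (CD94), the partner of the NKG2 chains, stood at 656 against 229 CPM (81.0% and 45.0% of cells, log2 ratio 1.52), and Klrc1 (NKG2A) had a ratio of 1.27 and Klrk1 (NKG2D) of 0.59. The SLAM-family receptor Cd244a (2B4) was found in 45.0% against 6.94% of cells, a log2 ratio of 2.94 (2.66 to 3.21). Cd160 had a ratio of 1.37. Cd7, an early T and NK cell surface protein, stood at 4015 against 528 CPM and was found in 96.7% of members. The adhesion receptor Crtam was the member of the list past 2-fold in the other direction, at −1.25.

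The granule list had 7 of 15 members higher and 2 lower, with a median of 0.69. Gzma stood at 11394 against 573 CPM, a log2 ratio of 4.31 (4.27 to 4.35), and was the most abundant granule RNA of the members. Per cell it ran from 0 to 272 UMIs with a median of 34, and the 172 members with any had a median of 78. A cell with 0 UMIs may still hold the RNA at this depth. Gzmb stood at 3175 against 304 CPM (3.39, interval 3.32 to 3.45) and ran from 0 to 77 UMIs with a median of 10. Of the 172 members with Gzma, 169 also had Gzmb and 3 did not, while 213 of all 269 members had Gzmb. Gzmc (228 against 11.6 CPM, 4.30) was found in 21.2% of members, with 53.1% of its UMIs in 5 cells. Gzmk, the granzyme of many memory CD8 T cells, was lower, at 22.9 against 244 CPM and in 5.58% against 38.1% of cells (−3.38, interval −3.99 to −2.88), and Gzmm was lower too (−1.90). Prf1, the gene of the pore-forming protein perforin, stood at 56.2 against 44.9 CPM (0.33, interval −0.06 to 0.68), a difference within counting error. The protease inhibitor Serpinb9, which shields a killer cell from its own granzyme B, had a ratio of 1.02, Serpinb6b of 1.499 and the death ligand Tnfsf10 (TRAIL) of 1.53. The granzyme genes of this family are similar in sequence, which limits how far Gzmb and Gzmc can be told apart.

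Of 24 tissue residency genes, 10 were higher and 3 lower, with a median log2 ratio of 0.86. Itgae stood at 299 against 62.5 CPM and was found in 57.2% against 15.1% of cells, a log2 ratio of 2.26 (2.08 to 2.44). Itga1 stood at 244 against 57.2 CPM and was found in 58.4% against 16.5% (2.09, interval 1.89 to 2.29). In the parous members Itgae ran from 0 to 11 UMIs and Itga1 from 0 to 7, each with a median of 1. Both integrins were seen in 115 members (42.8%), Itgae alone in 39, Itga1 alone in 42 and neither in 73. Gzma was seen with an integrin in 157 members (58.4%) and without one in 15, so few members had Gzma and no integrin UMI. All of Gzma, Itgae and Itga1 were seen in 95 members (35.3%), and none of them in 58 (21.6%).

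Other residency genes were higher too. Xcl1, a chemokine that draws cross-presenting dendritic cells, stood at 2430 against 507 CPM and was found in 94.1% of members (2.26, interval 2.20 to 2.32), from 0 to 65 UMIs a cell with a median of 8. The transcription factor genes Hic1 (2.59, interval 2.22 to 2.96) and Zfp683, or Hobit (1.96, interval 1.61 to 2.29), and Cdh1, the E-cadherin gene (1.91), were each past 2-fold. Cd69, whose protein holds T cells in tissue, did not differ by more than its counting interval (347 against 339 CPM, 0.03, interval −0.11 to 0.18). Cxcr6, a chemokine receptor of resident cells, had a ratio of 0.59 (0.42 to 0.76). Other chemokine receptors on the list were low: Ccr8 had 1 UMI in the members (−3.05, interval −8.94 to −1.12), and Ccr9 and Ccr10 had 0 UMIs, at least 1.88-fold and at least 1.74-fold lower against a floor of 3 counts over the group.

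Among lineage transcription factors, 2 of 24 were higher and 7 lower, with a median of 0.05. Ikzf2 (Helios), a factor of agonist-selected T cells and NK cells, stood at 404 against 73.2 CPM and was found in 67.3% against 13.6% of cells (2.47, interval 2.30 to 2.62). Irf8, a factor of B cell and dendritic cell development, stood at 148 against 16.8 CPM (3.14, interval 2.84 to 3.43). Tbx21 (T-bet) stood at 229 against 124 CPM (0.88, interval 0.69 to 1.06), while its relative Eomes was lower at 21.4 against 74.3 CPM (−1.77, interval −2.41 to −1.25). Themis, which conventional T cells need for positive selection in the thymus, was found in 10.0% of members and 54.3% of the other cells (−2.76, interval −3.23 to −2.35), and Irf4 (−2.49) and Maf (−2.12) were lower as well. Zbtb16 (PLZF), the factor of NKT and MAIT cells, had 8 UMIs and was seen in 2.23% of members.

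The coreceptor and T cell receptor list had 4 of 14 members higher and 4 lower. Cd8b1 was found in 24.5% of members and 85.7% of the other T cells (154 against 948 CPM, −2.62, interval −2.83 to −2.42), while Cd8a was at 616 against 541 CPM (0.19, interval 0.08 to 0.29) and in 74.0% and 77.2%. A member held from 0 to 15 Cd8b1 UMIs with a median of 0, and from 0 to 14 Cd8a UMIs with a median of 2. Cd8a without Cd8b1 was the usual state, in 147 members, with 52 showing both, 14 Cd8b1 alone and 56 neither. The sort was on CD8α and T cell receptor β protein, which limits the cells that could enter. Trac, the constant gene of the alpha chain, stood at 202 against 224 CPM (−0.15, interval −0.34 to 0.04), and Cd4 had 0 UMIs. Cd3e (0.63) and Cd3g (1.08) were used by the rule and are given only as values. The T cell receptor modulators Cd5 (−2.04) and Cd6 (−1.95) were lower.

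Lymph node homing and naive genes went 1 way: 0 of 20 were higher and 12 lower, with a median log2 ratio of −1.12. Ccr7, the lymph node homing receptor, stood at 64.9 against 353 CPM (−2.44, interval −2.78 to −2.13), with 62.2% of its UMIs in 5 members. Lef1, a factor of naive T cells, had a ratio of −2.24, the interleukin-7 receptor gene Il7r of −1.61, and S1pr1, the receptor that T cells follow out of tissue, of −1.40 (−1.81 to −1.03). Klf2, which drives S1pr1, stood at 377 against 868 CPM (−1.20, interval −1.34 to −1.07). The inhibitory receptor list divided, with 4 of 14 higher and 6 lower: Pdcd1 (PD-1) was found in 3.35% against 21.1% of cells (−2.72, interval −3.50 to −2.11) and Ctla4 had a ratio of −1.88, while Cd200r1 had a ratio of 1.76. Of the cytokine receptors 2 of 15 were higher and 3 lower, with a median of 0.03. Il2rb, the chain that binds IL-15 and IL-2, stood at 868 against 419 CPM (1.05, interval 0.95 to 1.14) and was seen in 93.3% of members, and Il12rb2 had a ratio of 1.71. The 3 lower were Il7r, Il10ra (−1.12) and Ifngr2 (−1.69).

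The genes with the most extreme ratios included several of no list. After Ncr1 came the paired receptor gene Cd200r2 (6.10, interval 4.88 to 7.92), Frmd5 (6.05), Aoah, a lipase that inactivates bacterial lipopolysaccharide (5.36), Klrb1a (5.34), Lrmda (5.10), the TNF-family ligand gene Tnfsf12 (4.68), Cited4 (4.48) and Arap3 (4.14). Lrmda was found in 32.3% of members, Cited4 in 29.0% and Aoah in 22.7%, so these were not genes of a few cells. At the other end, Ly6a (Sca-1) was found in 1.49% of members and 23.4% of the other cells, from 4 UMIs in the members (−5.12, interval −7.17 to −3.93). The ganglioside synthase gene St8sia1 (−4.29, interval −10.18 to −2.38) and the costimulatory ligand gene Cd86 (−4.14, interval −10.04 to −2.23) had 1 UMI each in the members. The myeloid condition of the rule was set on the members and on neither group they are compared with. Ifi27l2a, an interferon-induced gene, was found in 8.18% against 49.4% of cells (−3.48), and Slamf1 (−3.27), Tbc1d4 (−3.18), Dapl1 (−3.15) and Il6ra (−2.89) followed.

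Markers of other cell types were read in the members by whole list. Of 11 NK cell and innate lymphoid genes, 4 were at 0, among them Klra8, Il1rl1 and Kit, and the list summed to 461 CPM in the members and 137 CPM in the other T cells, mostly Klrb1c, Klra9 and Ncr1. Of the 6 measured, 4 were at least 2-fold higher and 1 lower, with a median log2 ratio of 2.63. Trac was in 52.4% and a CD3 UMI, by the rule, in every member. Of 10 gamma-delta T cell genes, 6 were measured, of which 5 were at least 2-fold higher and 1 lower (median log2 ratio 1.73). Sox13, Blk and Cd163l1 were at 0, and the list summed to 335 against 116 CPM. Most of that was Trgv2 (40.1% against 13.3% of cells) and the gamma constant genes Tcrg-C1 (log2 ratio 2.33), Tcrg-C2 (1.84) and Tcrg-C4 (2.39). Tcrg-C1 and Tcrg-C2 are near-identical copies, and gamma genes are transcribed in many alpha-beta T cells. The delta constant gene Trdc had 7 UMIs, in 2 members. Of 17 macrophage, monocyte and dendritic cell genes, 8 were at 0, among them Adgre1, Spi1 and Fcgr1, and the list summed to 153 against 198 CPM. The rule kept only members without Lyz2, Csf1r, Cd74 and H2-Aa UMIs and set no such condition on the other cells. The lower sum was thus partly fixed by the rule. The median log2 ratio of the list was −1.15, and 0.41 with no myeloid exclusion. Of 9 B cell genes, 3 were measured and 5 were at 0, among them Cd79a, Ms4a1 and Pax5. The sum was 148 against 97.3 CPM, of which Ighm was 132 CPM. Of 10 neutrophil and mast cell genes 9 were at 0 and 0 were measured, with sums of 3.16 against 1.49 CPM. Of 12 mammary epithelial genes, 8 were at 0, among them Krt8, Krt5, Krt14, Csn2, Wap and Elf5, and the sum was 223 against 94.5 CPM. The sum in the members came mostly from Trf, the transferrin gene (162 against 38.4 CPM, log2 ratio 2.08), and Epcam (59.3 against 12.3 CPM, log2 ratio 2.27). Of the 7 mammary epithelial genes measured, these 2 were at least 2-fold higher and the other 5 lower by as much. The median log2 ratio was −3.01, or −1.02 with genes at 0 set to the floor of 3 counts. The list of CD4 and regulatory T cell genes summed to 87.8 against 194 CPM, with Cd4 and Tnfrsf4 at 0, and that of fibroblast, endothelial, adipocyte and erythroid genes to 6.33 against 25.5 CPM, with 12 of 14 at 0. The part of RNA from other cells in the ratios was not tested.

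The second comparison set the members beside 552 parous T cells with Itgae or Itga1 and 0 UMIs of both adaptors, with a median of 4172.5 UMIs. Both integrins were seen in 18.3% of these and in 42.8% of members. The choice left out the 109 cells with at least 5 Fcer1g and no Tyrobp UMI. Those had Ikzf2 in 78.9%, Klra7 in 46.8% and Cd8b1 in 27.5%, against 67.3%, 69.5% and 24.5% of members. The members differed from the integrin-positive cells in NK receptors, granzymes A and B, Helios and the CD8β chain, and not in Cd69 or Cxcr6. Among 8055 genes, 359 (4.46%) were at least 2-fold higher in the members and 277 (3.44%) lower, with a median of 0.07. Of the NK receptors 15 of 21 were higher and 1 lower (median 2.96), of the granule genes 5 of 15 and 1 (median 0.68), and of the residency genes other than the integrins 4 of 20 and 1 (median 0.24). Recirculation genes were lower in 8 of 18 and higher in 0 (median −0.87).

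Klrb1c stood at 210 against 2.40 CPM and was found in 51.3% against 1.09% of cells, a log2 ratio of 6.34 (5.32 to 7.92). Ncr1 had 82 UMIs against 1 (6.77, interval 4.83 to 12.66), and Klra1 had a ratio of 6.71 (5.69 to 8.28). Klrb1a had 78 UMIs in the members and 0 in the integrin-positive cells, at least 51.5-fold higher against the floor of 3 counts over the group. Cd200r2 and Tnfsf12 were at least 25.8-fold and at least 21.8-fold higher on the same footing. Frmd5 and Aoah each had 79 UMIs against 1 (6.71, interval 4.77 to 12.61). These few genes were at or near 0 in cells that had an integrin and lacked the adaptors, while the NK receptor list as a whole summed to 8220 CPM in the members and 1795 CPM in the integrin-positive cells.

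Gzma was found in 63.9% of members and 18.1% of the integrin-positive cells (11394 against 563 CPM, log2 ratio 4.34, interval 4.26 to 4.42), and Gzmb in 79.2% and 37.3% (3.08, interval 2.98 to 3.19). At 1500 UMIs a cell the shares were 62.5% and 13.2% for Gzma and 73.0% and 24.7% for Gzmb. Xcl1 stood at 2430 against 637 CPM (1.93, interval 1.84 to 2.02). Ikzf2 was found in 67.3% against 9.96% (3.02, interval 2.74 to 3.32), and Irf8 in 31.2% against 3.62% (4.05, interval 3.43 to 4.78). Lat2 had a ratio of 5.34, Lyn of 3.69 and Plcg2 of 3.59. Of the residency genes, Hic1 (1.92), Zfp683 (1.39) and the membrane protein gene Litaf (1.31) were higher, while Cxcr6 (−0.02, interval −0.21 to 0.17) and Cd69 (0.07, interval −0.10 to 0.23) had intervals that held 0. Itgae and Itga1 chose the integrin-positive cells and are not compared.

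Lower in the members were Cd8b1, found in 24.5% against 92.8% of cells (−2.77, interval −2.99 to −2.56), Themis (−2.82), Cd5 (−2.12) and Cd6 (−2.07). The costimulatory receptor Cd28 was found in 25.3% against 75.9% of cells (−1.67, interval −1.91 to −1.44). Ly6a was the most extreme, at 1.49% against 32.6% of cells (−5.72, interval −7.77 to −4.52), followed by St8sia1 (−4.83, interval −10.73 to −2.89), Cd86 (−4.44, interval −10.34 to −2.48) and the chemokine receptor gene Ccr8 (−4.39, interval −10.29 to −2.44). Gzmk was in 5.58% against 45.3% (−3.52) and Pdcd1 in 3.35% against 27.0% (−3.15). Ifng, the interferon gamma gene, was lower by less (108 against 200 CPM, −0.88, interval −1.17 to −0.61). The integrin-positive cells carried less Trf and Epcam (Trf in 2.54% against 39.8% of members, Epcam in 2.90% against 19.7%) and less Ighm (17.8% against 39.4%), and the part of such RNA in the comparison was not tested.

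Inside the parous members, 203 had no Cd8b1 UMI (75.5%, interval 69.9 to 80.5%) and 66 had at least 1, while 14.3% of the other parous T cells had none. The Cd8b1-negative members had more Gzma, Gzmb and NKp46 RNA per UMI, and the Cd8b1-positive members held all 19 Pdcd1 UMIs and more Ccr7, Cd6, Themis and Ctla4 RNA. Cells with a Cd8b1 UMI were deeper as a group (median 5163 against 4111 UMIs), but not all alike. The 27 with exactly 1 Cd8b1 UMI had a median of 3972 UMIs, and the 39 with at least 2 had a median of 6670. Among 5178 genes, 140 (2.70%) were at least 2-fold higher in the Cd8b1-negative members and 87 (1.68%) lower, with a median of 0.03. With at least 100 UMIs over both groups, 10 of 1879 genes (0.53%) were higher and 11 (0.59%) lower. Without the T cells of highest UMI count, 171 of 4734 genes (3.61%) were higher and 90 (1.90%) lower. The part of doublets in this comparison was not tested. The groups are small, so intervals were wide and a ratio from 1 gene weighs little.

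Gzma and Gzmb were higher per UMI in the Cd8b1-negative members, in different ways. Gzma was seen in 64.5% of Cd8b1-negative and 62.1% of Cd8b1-positive members, at 13004 against 7685 CPM (log2 ratio 0.76, interval 0.70 to 0.82). Its UMIs ran from 0 to 246 with a median of 45 in the former and from 0 to 272 with a median of 18.5 in the latter, so the ranges overlapped fully. Gzmb stood at 3499 against 2428 CPM (0.53, interval 0.42 to 0.63) and was seen in 81.3% against 72.7% of cells, with medians of 15 and 14 UMIs in the cells that had it. Prf1 stood at 63.5 against 39.2 CPM (0.66, interval −0.15 to 1.63). None of 13 measured granule genes passed 2-fold, and their median was 0.36.

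NK receptors had 2 of 20 members higher and 0 lower in the Cd8b1-negative cells, with a median of 0.54. Ncr1 was in 19.2% against 9.09% of cells (82.8 against 23.5 CPM, 1.75, interval 0.81 to 3.001), and Klrb1a had a ratio of 1.35 (0.47 to 2.47). Klrb1c was in 51.2% against 51.5% of cells, at 242 against 138 CPM (0.79, interval 0.36 to 1.27). Ikzf2 (0.53, interval 0.23 to 0.84), Zfp683 (0.72, interval 0.04 to 1.51), Tbx21 (0.43, interval 0.05 to 0.85) and Il2rb (0.33, interval 0.14 to 0.53) were under 2-fold. Fcer1g (0.47) and Tyrobp (0.73) were used by the rule.

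The integrins did not separate the 2 kinds of member beyond counting error. Itgae was in 59.1% against 51.5% of cells (0.25, interval −0.08 to 0.59) and Itga1 in 59.1% against 56.1% (0.07, interval −0.29 to 0.44). Cd69 (0.07, interval −0.22 to 0.39), Cxcr6 (−0.01, interval −0.35 to 0.34), Hcst (−0.03), Zap70 (0.16) and Trac (−0.07, interval −0.46 to 0.33) had intervals that held 0 as well. Cd8a was level, at 612 against 625 CPM (−0.03, interval −0.25 to 0.20). These intervals leave room for differences of up to about the sizes given.

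Several genes of receptors and of T cell receptor tuning were lower in the Cd8b1-negative members, among genes of other kinds. Pdcd1 had 0 UMIs against 19, at least 14.6-fold lower. Ifi27l2a was in 2.96% against 24.2% of cells (−3.22, interval −4.43 to −2.26), Ccr7 in 4.93% against 18.2% (−2.54, interval −3.33 to −1.85), and Ctla4 in 4.93% against 24.2% (−2.43, interval −3.52 to −1.48). Cd6 (−2.28, interval −3.33 to −1.34), Themis (−2.23, interval −3.25 to −1.32) and Cd5 (−1.77, interval −2.80 to −0.82) are genes of T cell receptor tuning. The interleukin-10 receptor gene Il10ra (−1.94), Cd84 (−1.73), Adgrg1 (−1.66) and Dleu2 (−1.61) completed the lowest ratios. Cd28 was in 19.7% against 42.4% of cells (−1.44, interval −1.89 to −0.99) and Tcf7, a factor of naive and memory T cells, had a ratio of −1.02 (−1.59 to −0.44). Bcl11b, needed for T cell identity, was lower at −1.05 (−1.75 to −0.33) and Eomes at −1.51 (−2.75 to −0.33). In all, 3 of 15 recirculation genes and 3 of 12 coreceptor and receptor genes other than Cd8b1 were lower and 0 higher.

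The highest ratios, that of Ncr1 among them, rested on few UMIs. Paxbp1 had 36 against 2 (2.66, interval 1.01 to 6.07), Med6 34 against 3 (2.10, interval 0.63 to 4.65) and Haghl and Sgf29 30 against 3 each (1.92, interval 0.43 to 4.47). Sap30l (1.78), Arrdc4 (1.77), Yaf2 (1.73), Sac3d1 (1.69) and Pold2 (1.69) followed, and Tgfbr1, a chain of the TGF-beta receptor, had 39 against 5 UMIs (1.64, interval 0.42 to 3.46). All Trdc (7) and Zbtb16 (8) UMIs of the members lay in Cd8b1-negative cells.

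**Figure D3:**
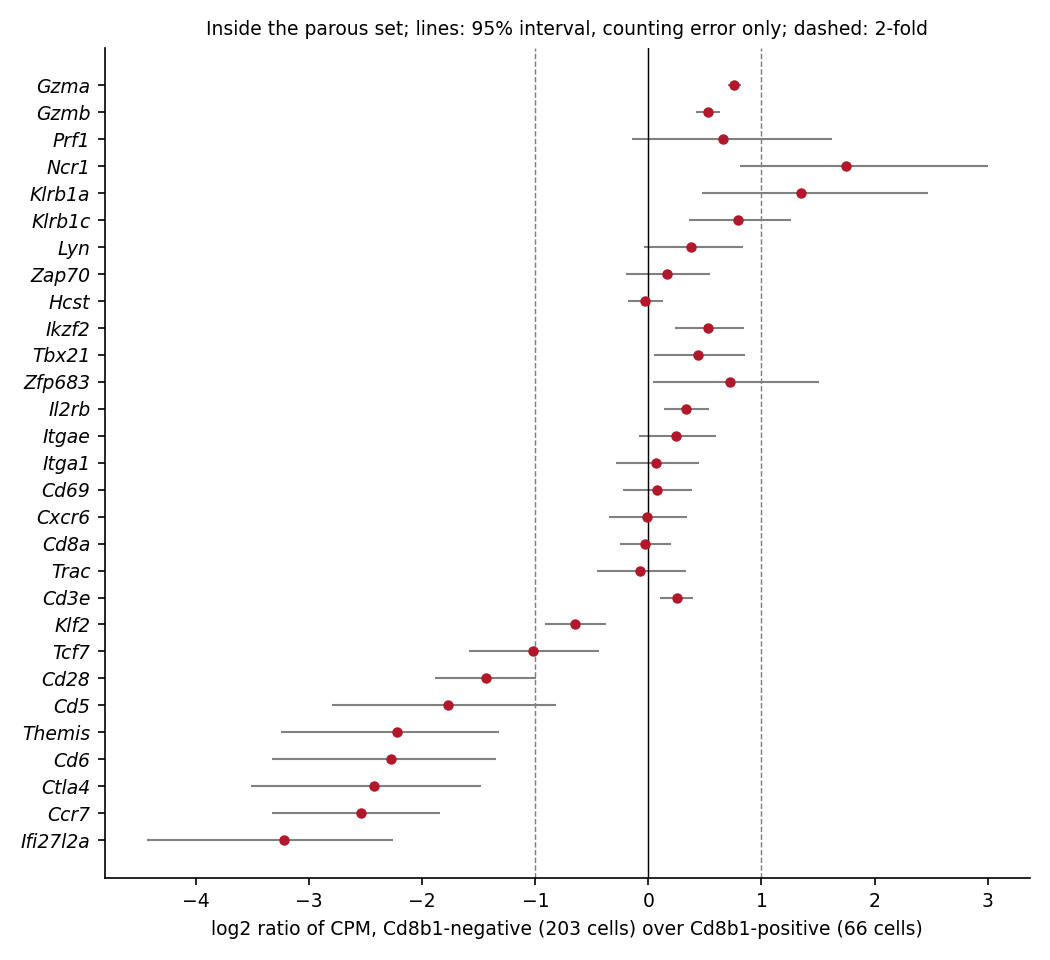
Log2 ratio of CPM in Cd8b1-negative over Cd8b1-positive Fcer1g+ Tyrobp+ T cells of the parous library for 29 genes, with lines for the 95% counting interval. Ncr1 (1.75) and Gzma (0.76) lie above 0, Itgae, Itga1, Cd69, Cxcr6 and Cd8a have intervals that hold 0, and Ccr7 (−2.54) and Ifi27l2a (−3.22) lie far below.

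T cell receptor segments were read from the gene expression UMIs, and a cell was given a segment where that segment had 2 UMIs or more and made up 2/3 or more of the UMIs of its kind. A Trbv segment was assigned in 217 of 269 parous members (80.7%), over 20 segments, with an effective number (the exponential of the Shannon entropy) of 14.2 against 16.5 in the other parous T cells and 14.5 in the integrin-positive cells, on unequal numbers of cells. The members were therefore a mix of many beta chains. Trbv12-2 was the most used, in 27 cells (12.4%, interval 8.36 to 17.6%), against 4.88% of the other cells (interval 3.98 to 5.91%) and 4.62% of the integrin-positive cells. Trbv15 was in 26 cells (12.0%, interval 7.98 to 17.1%) against 2.27% (interval 1.66 to 3.01%) and 1.95%. Trbv13-2 was also in 26 cells (12.0% against 8.77%), and Trbv13-1 in 21 (9.68% against 4.53%). Trbv3, the top segment of the other cells at 12.96% and of the integrin-positive cells at 18.2%, was in 7.83% of members. Trbv1 was in 5.07% against 8.42%, and Trbv31 in 4 cells (1.84% against 5.86%). Some Trbv segments are near-identical, mice were pooled, and cells of 1 clone cannot be told from separate cells with the same segment.

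Where all of a cell's Trbv UMIs had to come from 1 segment, 171 members were assigned, with Trbv12-2 in 19 and Trbv15 in 16 (9.36%). Among the 164 assigned Cd8b1-negative members, Trbv12-2 was in 23, Trbv15 in 22 (13.4%) and Trbv13-2 in 16. Among the 53 assigned Cd8b1-positive members, Trbv13-2 led with 10, and Trbv12-2 and Trbv15 had 4 each. A Trav segment was assigned in 98 members, over 38 segments, with Trav8-1 the most used in 8 cells (8.16% against 1.38% of the other cells and 2.84% of the integrin-positive cells). Trav3-3 was in 4.08% of members, 20.3% of the other cells and 22.3% of the integrin-positive cells. The invariant NKT segments Trav11 and Trav11d had 0 UMIs in the T cells of either library, members or not. Whether reads of these segments could be counted here was not tested. Trav1, the segment of MAIT cells, had a UMI in 5 of 269 members (1.86%) and 29 of 2722 other parous T cells (1.07%).

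**Figure D4:**
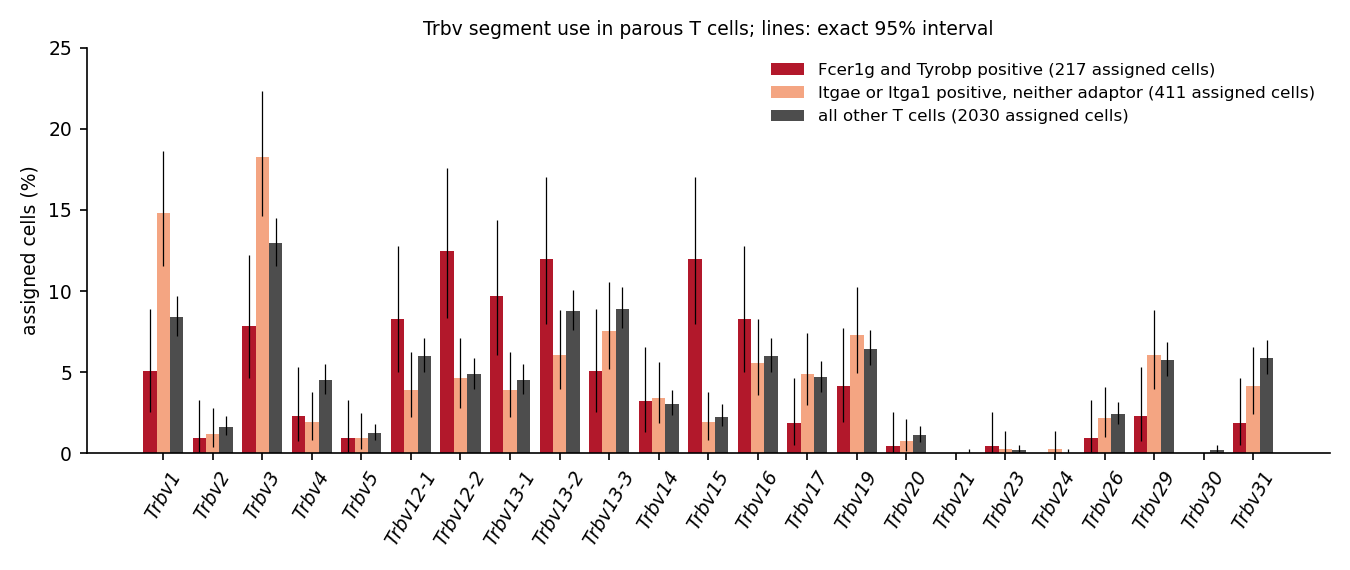
Share of cells with an assigned Trbv segment that used each segment, in parous Fcer1g+ Tyrobp+ T cells, integrin-positive T cells without the adaptors and other T cells, with exact 95% intervals. Trbv12-2 (12.4%) and Trbv15 (12.0%) are above their shares in the other groups, and Trbv3 (7.83%) is below.

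Most of the 18 virgin members had Klra7, Helios and NK1.1 RNA, like the parous members, and few had a UMI of granzyme A, granzyme B or Itgae. All 18 had Ikzf2 (522 CPM, a log2 ratio of 3.95 to the other virgin T cells), 14 had Klra7 (344 CPM, 3.98), 10 had Klra1 (172 CPM, 4.01) and 11 had Klrb1c (201 CPM, interval 140 to 279, 5.12). Other Ly49 genes were rare, with Klra9 in 1 cell and Klra5 in 0. Klrb1c was at 1.04 times this level in the parous members, and Il2rb (849 CPM, in 18 cells) at 1.02 times. Klrd1 was in 16 cells (459 CPM), Cd7 in 17 (843 CPM), Xcl1 in 16 (740 CPM) and Tbx21 in 13 (201 CPM). Lyn was in 6 cells (97.5 CPM, 4.11) and Lat2 in 7 (57.4 CPM, 3.05). Ncr1 had 3 UMIs in 1 cell and Klrb1a 2 UMIs in 1 cell, so NKp46 could not be compared at this depth.

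Gzma had 150 UMIs in 2 virgin members, with 99.3% of them in 1 cell, against a median of 34 UMIs and 172 cells in the parous members. Summed, it was at 860 CPM, 13.2-fold lower than in the parous members. Gzmb had 88 UMIs in 3 cells, with 96.6% in 1 cell, and was 6.26-fold lower. Gzmc, Irf8 and Hic1 had 0 UMIs. Itgae was in 2 cells (22.9 CPM, interval 6.25 to 58.7), 11.6-fold lower, and Itga1 in 6 cells (40.1 CPM), 5.67-fold lower. Of the 18, 10 had none of Gzma, Itgae and Itga1. The medians were 8162.5 UMIs in the virgin and 4325 in the parous members.

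Some genes of circulating and naive cells were higher in the virgin members than in the parous members. Others, among them Klrg1, S1pr5, Cx3cr1, Igfbp4 and Il6ra, had 0 UMIs in the virgin members. In 18 cells 0 UMIs leaves room for up to 21.2 CPM, and S1pr5 had 0 UMIs in the parous members as well. Ly6c2, the gene of Ly6C, was at 3160 CPM (interval 2901 to 3435) in 16 of 18 cells, 3.82-fold above the parous members. The interleukin-18 receptor gene Il18r1 was in 12 cells (184 CPM, 4.96-fold higher), Il7r in 10 (315 CPM, 4.04-fold) and Lef1 in 11 (155 CPM, 4.03-fold). The other T cells differed in the same direction. Recirculation and naive genes summed to 7226 CPM in virgin and 2850 CPM in parous members, and to 6574 and 4852 CPM in the other T cells. Circulating effector genes summed to 4955 and 1868 CPM in the members, and to 4186 and 2891 CPM in the other T cells. Cd8b1 was in 9 of the 18 virgin members, and the share without it (interval 26.0 to 74.0%) stood against 4.07% of the other virgin T cells. Neither Cd8a nor Cd8b1 was seen in 5. A Trbv segment was assigned in 14, over 9 segments, with Trbv13-2 in 4. Gzma together with Itgae or Itga1, seen in 157 of 269 parous members, was seen in 1 of 18 virgin members. Parity and the library are 1 and the same division here, so differences between the libraries cannot be told apart from differences between these 2 pools and preparations.

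**Figure D5:**
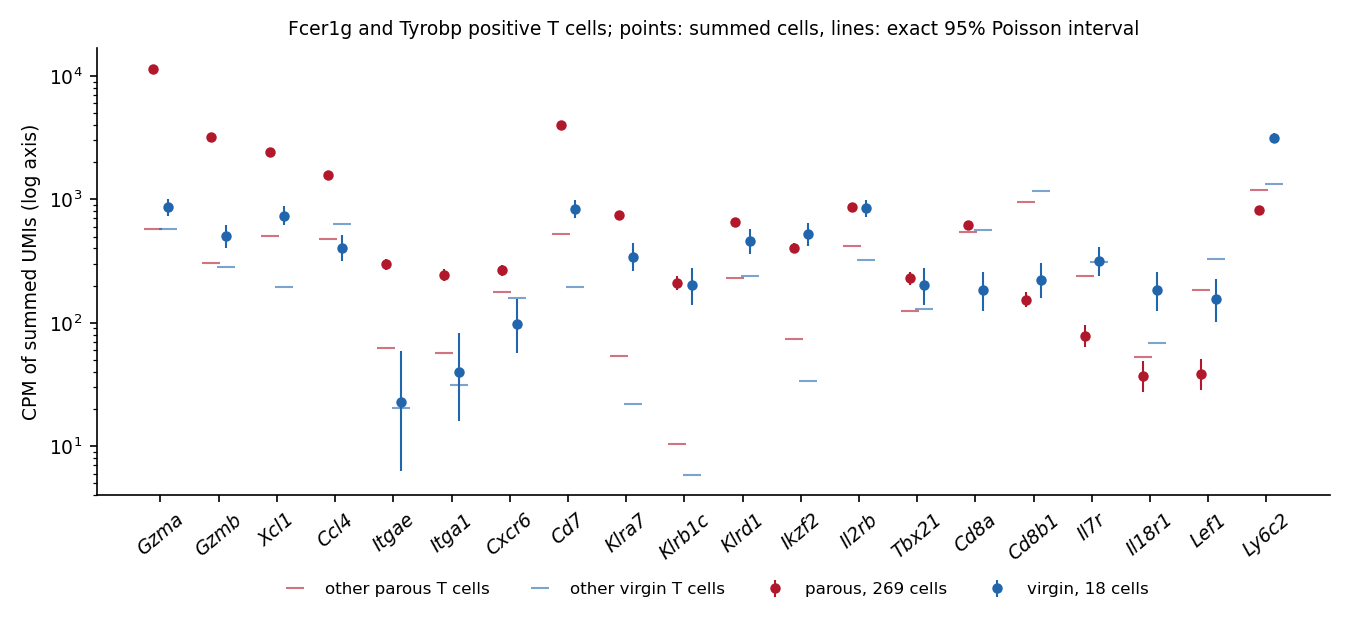
CPM (log axis) of genes in the 269 parous and 18 virgin Fcer1g+ Tyrobp+ T cells with exact Poisson 95% intervals, and dashes for the other T cells of each library. Ikzf2, Klrb1c and Il2rb lie at like levels in the members of both libraries, Gzma, Gzmb, Itgae and Itga1 are higher in the parous members, and Ly6c2 is higher in the virgin members.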

How the data were processed

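The authors deposited raw UMI counts per gene and barcode for 1 parous and 1 virgin library, which name Cell Ranger 7.0.0 in their headers. The submitters' processing notes give mm10 and list R 4.4.2 and Seurat, with no task stated. How cells were called and whether intronic reads counted is not given in the sources used here. Each matrix held 32285 genes. The members, gene lists and named genes were chosen with earlier results of these data known. Of 428 list entries 427 matched a gene of the matrix (Mx1 did not). Counts were summed per group and divided by the group's total. Named genes were the 14 largest and 10 smallest ratios against other T cells, 8 and 8 against integrin-positive cells and 10 and 10 inside the members, with at least 20 CPM in 1 group and 30 UMIs over both, up to 5 genes a list past 2-fold, and a fixed set; a gene named for 1 comparison or a list may be given in another. Lat, Sh2d1a, Lck, Klrc1, Klrk1, Klrd1, Klre1, Cd160, Cd7, Crtam, Cdh1, Serpinb9, Tnfsf10, Cd200r1 and the genes given for the virgin members were taken from the lists. Thinning used 1500 UMIs, the 5th percentile of parous T cells rounded down. No doublet caller was run; an alternative left out T cells above the 95th percentile of UMIs. Other alternatives changed scaling, weighting of cells, depth, filters, the adaptor, Cd8b1, CD3 and myeloid conditions, and segment assignment. Sequences and positions came from RefSeq (GRCm38.p6) and GENCODE vM21. The ratio was tested on simulated counts. Python 3.11.15, numpy 2.4.6, scipy 1.17.1, pandas 2.3.3 and matplotlib 3.10.9 were used. Some genes of the lists are not reported here.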

Additional observations from a re-analysis of the deposited data

Results flagged for a closer look

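For 6 of the genes reported here the members lay on opposite sides of the other T cells in the 2 libraries, with both counting intervals clear of 0; the difference between the libraries was not tested, and each library is 1 pool. The values are the log2 ratio of members to other T cells in the parous library, that in the virgin library, and the first minus the second. Ccl3, a chemokine gene of activated killer cells, had 1.14 and −2.66, a difference of 3.796, with the virgin value from 1 UMI. Its relative Ccl4 had 1.73 and −0.62 (2.35). Cd8a had 0.19 and −1.59 (1.77), and the parous value was 0.05 under median-of-ratios scaling. Cxcr6 had 0.59 and −0.65 (1.25). Il18r1 had −0.49 and 1.44 (−1.92) and Ly6c2 −0.54 and 1.25 (−1.79).

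The cell filter removed 1908 parous barcodes, of which 40 had a CD3 UMI and both adaptors without a myeloid UMI. Of the 15 virgin barcodes removed, 0 did.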

How the results depend on the processing

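No paired analysis was possible because each group was 1 library. Asking for at least 2 UMIs of each adaptor gave a parous share of 7.76%, and thinning before the rule gave 7.34% (virgin 0.242%). Under the other settings the parous share ran from 8.91 to 9.60%. The Cd8b1-negative share was 89.0% after thinning and 85.5% where 1 Cd8b1 UMI counted as negative. With at least 100 UMIs, the genes higher and lower numbered 346 (4.28%) and 300 (3.71%) of 8083 against other T cells. They numbered 151 (3.23%) and 80 (1.71%) of 4675 against integrin-positive cells, and 10 (0.53%) and 11 (0.59%) of 1879 inside the members. With no filter on low counts they numbered 3978 (22.8%) and 1215 (6.97%) of 17430, 1848 (12.6%) and 1472 (10.0%) of 14674, and 1459 (11.5%) and 1759 (13.8%) of 12729. Genes of 1 UMI then pass. Of the values of single genes under alternatives, 1934 stayed within their limits, 76 moved and 4 changed direction: Trdc (−0.41 with at least 2 UMIs of each adaptor), Apoe (2.74) and H2-Ab1 (0.96) with no myeloid exclusion, and Krt18 (0.19 with cells weighted equally). The median of the macrophage list was 0.41 with no myeloid exclusion. The cause was not tested. Depth limits genes seen in few cells, and 18 virgin members limit every virgin value.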

Other observations

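Cell cycle genes were lower in the parous members than in other parous T cells: 0 of 20 were at least 2-fold higher and 12 lower, with a median log2 ratio of −1.26, and −0.50 without the T cells of highest UMI count. Mki67, a marker of dividing cells, had 9 UMIs in 269 members. Of 17 interferon-induced genes 0 were higher and 7 lower (median −0.76, or −0.66 with genes at 0 set to the floor of 3 counts): Ifit1 had 1 UMI (−3.92, interval −9.81 to −2.00) and Bst2 a ratio of −1.33, while Isg15 was at 142 against 119 CPM (0.25). Of 12 chemokine receptors 0 were higher and 8 lower (median −1.53, or −1.10 with genes at 0 set to the floor), among them Ccr2 (−1.69) and Cxcr4 (−1.38). Of 10 genes of circulating effector cells 0 were higher and 7 lower (median −1.11): Klrg1 had 5 UMIs (−2.63, interval −4.40 to −1.53) and S1pr5 none, at least 2.34-fold lower.

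Of 14 genes of TGF-beta signalling 2 were higher and 0 lower (median 0.32): Ldlrad4, an inhibitor of the pathway (1.52, interval 1.33 to 1.69), and Itgav, an integrin chain that activates the latent cytokine (1.34, interval 0.997 to 1.67). Skil (0.91) and Pmepa1 (0.97), which the pathway induces, were under 2-fold. Of 15 survival genes Bcl2l11, the gene of the death protein Bim, was higher (1.37, interval 1.21 to 1.52), Bcl2a1d lower (−1.37) and Bcl2 at 0.58. Among 12 cytokine genes Ccl4 (1568 against 473 CPM), Ccl3 and Xcl1 were higher, Lta (−2.01, interval −5.39 to −0.44) and Areg (−1.12, interval −2.90 to 0.01) were lower by at least 2-fold, and Ifng was at −0.49 (−0.76 to −0.25). Of 17 immediate early and heat shock genes 0 were higher and 1 lower (median 0.07), and of 14 S100, annexin and galectin genes 0 and 1 (median −0.11), the latter being Lgals1 (−1.36, interval −1.49 to −1.23).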
